A study of Mus musculus with 9 samples.

Results

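Killer lectin receptors and the receptors grouped with them are surface proteins best known from natural killer (NK) cells, and activated T cells carry several of them too. The 10 genes described here are Klrd1, Klrc1, Klrc2, Klrk1, Klrb1c, Klrb1f, Klrg1, Cd69, Crtam and Cd226. They were chosen by name, with earlier results of these data known. Each was read from the probe set with the highest mean among those annotated with its symbol alone, and all 10 had such a probe set, among 22180 genes measured in all.

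Mouse CD4 T cells of 3 genotypes were compared on 9 expression arrays, 3 for each genotype. WT cells were wild type. SRG3 cKO cells lacked SRG3, a subunit of the chromatin remodeller Swi/Snf, after conditional deletion, and RORγt KO cells lacked RORγt, the transcription factor that directs T cells towards the IL-17-producing Th17 fate. Naive cells of all groups were sorted from spleen as CD4+, CD25-, CD44 low and CD62L high, and all were kept for 60 h under the same Th17-polarizing conditions. These were plate-bound anti-CD3 and anti-CD28 (10 µg/ml of each), TGF-β1 (1 ng/ml), IL-6 (30 µg/ml as the labels write it), and blocking antibodies to IL-4 and IFN-γ (2 µg/ml of each). The driver of the conditional deletion, the strain and the age of the mice are not given in the sources used here. The labels number the arrays of each genotype as biological replicates but name no separate mice or cultures, so the p-values measure only how far these arrays scatter, which may be technical.

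Levels are log2 intensities, so a difference of 1 is a doubling of signal, and the median of all probe sets was 7.13. Levels of different genes come from different probes, so a rank among all probe sets is only a rough guide to how bright a gene is. The words rise, fall and differ are kept for genes whose limma p-value, adjusted by the Benjamini-Hochberg method over all 22180 genes, lay below 0.05. On the first principal component of all genes WT array 1, SRG3 cKO array 1 and RORγt KO array 3 lay apart from the other arrays of their groups. The labelled cell type was borne out by its markers: Cd4 and Cd3e were brighter than 98.6% and 98.8% of probe sets. None of 7 measured T cell markers passed in any comparison. Of 6 Th17 markers 3 fell in SRG3 cKO cells (Il17a, Il17f and Il23r), or 1 to 3 over the 17 alternatives, and 5 fell in RORγt KO cells in each of them. With an array dropped, Il17a in SRG3 cKO cells passed in all 9 fits, Il17f in 1 and Il23r in 2, and Il23r did not pass with the replicate number as a block (adjusted p = 0.0552).

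As background, the protein of Klrd1 (CD94) pairs with that of Klrc1 (NKG2A) into an inhibitory receptor, or with that of Klrc2 (NKG2C) into an activating one, and both pairs read the MHC class Ib molecule Qa-1. Klrk1 encodes NKG2D, an activating receptor for stress-induced ligands. The Klrb1 genes encode the NKR-P1 receptors, some of which bind proteins of the neighbouring Clec2 genes, and Klrg1 encodes an inhibitory receptor for cadherins. CD69 is an early activation marker that holds cells in tissue by binding the exit receptor S1PR1. CRTAM and CD226 are immunoglobulin-type receptors, for the adhesion protein CADM1 and for the nectin-like ligands PVR and nectin-2.

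Of the 10 genes, 8 lie on mouse chromosome 6, and Klrd1, Klrk1, Klrc2 and Klrc1 are near neighbours there. Crtam and Cd226 lie on other chromosomes. RefSeq promoter sequences (build GRCm38.p6) were at hand for 5 of the genes, Klrb1c, Klrb1f, Klrk1, Klrc2 and Klrc1. The 250 bases before the start site are shown for Klrc1 and Klrc2, which differed between the knockouts, and for their neighbour Klrk1, which did not pass the test. Capitals mark the letters TGTGGT (a motif of RUNX factors, ACCACA on the other strand) and CACGTG (an E-box). They read in the direction of the gene, from the minus strand, at chr6:129678974-129679223 for Klrc1, chr6:129660597-129660846 for Klrc2 (the upstream one of its annotated starts) and chr6:129623865-129624114 for Klrk1.
Klrc1: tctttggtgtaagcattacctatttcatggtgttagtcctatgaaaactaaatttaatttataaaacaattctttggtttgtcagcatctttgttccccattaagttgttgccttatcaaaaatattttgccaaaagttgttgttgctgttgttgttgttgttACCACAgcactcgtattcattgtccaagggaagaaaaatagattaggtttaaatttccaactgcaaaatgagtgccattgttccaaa
Klrc2: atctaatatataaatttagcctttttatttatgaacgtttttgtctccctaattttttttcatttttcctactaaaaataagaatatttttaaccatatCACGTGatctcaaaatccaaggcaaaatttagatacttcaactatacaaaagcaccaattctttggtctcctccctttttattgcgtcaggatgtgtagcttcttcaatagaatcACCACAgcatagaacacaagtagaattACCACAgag
Klrk1: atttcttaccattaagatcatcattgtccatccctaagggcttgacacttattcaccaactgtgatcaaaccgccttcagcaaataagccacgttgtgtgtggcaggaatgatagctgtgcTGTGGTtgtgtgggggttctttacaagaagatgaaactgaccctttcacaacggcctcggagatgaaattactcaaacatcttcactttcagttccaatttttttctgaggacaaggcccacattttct

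The RUNX letters stood once in the Klrc1 window, 87 bases before the start site, once in the Klrk1 window, at 129 bases, and at 36 and 9 bases in the Klrc2 window. The Klrb1c window held them as well, at 89 bases, and the Klrb1f window did not. Over both strands, 14.0% of 32851 RefSeq promoter windows of this length held these letters, and 6.02% held the E-box, which of the 5 genes only Klrc2 had. No window of these genes held the letters TGANTCA (AP-1, in 6.75% of all windows), AGGTCA (ROR factors, 14.0%), GGTGTGA (T-box, 3.33%), TTCNNNGAA (STAT, 7.02%) or the NF-κB motif (1.41%). The motifs do not overlap in the printed windows, and a match is a description of the sequence, not a binding site.

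**Figure D1:**
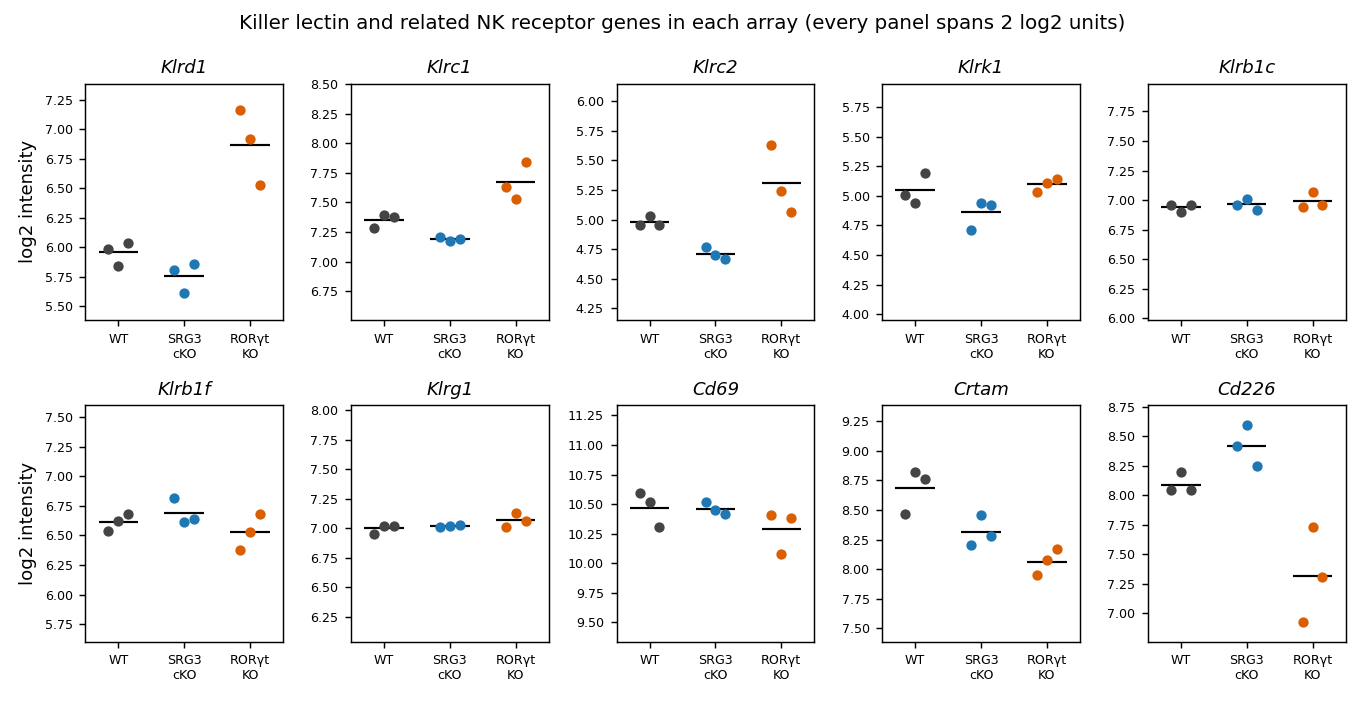
Log2 intensity (vertical axis, 2 log2 units in each panel) of the 10 receptor genes in the 9 arrays. Points are arrays, 3 per genotype, and horizontal lines are group means. Klrd1 stands highest in the RORγt KO arrays (6.53 to 7.16), where Cd226 (6.93 to 7.73) and Crtam (7.95 to 8.17) stand lowest, while Klrb1c and Klrg1 range over 0.16 and 0.18 across the 9 arrays.

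Klrd1, the shared chain of the CD94 receptors, was higher in RORγt KO cells than in either other genotype. The WT arrays read 5.99, 5.84 and 6.04, the SRG3 cKO arrays 5.81, 5.61 and 5.86, and the RORγt KO arrays 7.16, 6.92 and 6.53. Every RORγt KO array lay above every other array, while SRG3 cKO and WT arrays overlapped. Klrd1 rose 1.88-fold in RORγt KO against WT cells (0.91 on the log2 scale, SE 0.14, n = 3 arrays each, limma adjusted p = 0.0202). In SRG3 cKO against WT cells its change was -0.20 (95% confidence interval -0.51 to 0.11) and did not pass. In the direct comparison it was 2.16-fold lower in SRG3 cKO than in RORγt KO cells (-1.11, SE 0.14, adjusted p = 0.00505). Most of these levels were under the 7.13 at which the median probe set lay, so the folds are those of dim intensities. The rise over WT did not pass without WT array 2 (0.86, adjusted p = 0.107), WT array 3 (0.95, 0.0682), RORγt KO array 1 (0.77, 0.0589) or RORγt KO array 2 (0.89, 0.0972). The direct difference passed in all 17 alternatives (-1.28 to -0.96, adjusted p 0.00144 to 0.0398).

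Klrc1, the inhibitory partner NKG2A, took the same order of genotypes at a smaller size. Its level was 7.28, 7.39 and 7.38 in WT, 7.21, 7.17 and 7.19 in SRG3 cKO and 7.63, 7.53 and 7.84 in RORγt KO arrays. The 3 groups did not overlap, with SRG3 cKO lowest and RORγt KO highest. Klrc1 was 1.39-fold lower in SRG3 cKO than in RORγt KO cells (-0.48, SE 0.07, adjusted p = 0.0133). Against WT neither change passed, at 0.32 in RORγt KO (interval 0.16 to 0.48, adjusted p = 0.0891) and -0.16 in SRG3 cKO cells (-0.32 to 0.00, adjusted p = 0.459). The direct difference lost its call without RORγt KO array 1 (-0.49, adjusted p = 0.0508) and without SRG3 cKO array 1 (-0.49, 0.0533), 2 (-0.46, 0.0641) or 3 (-0.48, 0.0605).

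Klrc2, the activating partner NKG2C, was dim, with a mean at or above only 11.1% of probe sets. Its level was 4.95, 5.03 and 4.95 in WT, 4.77, 4.70 and 4.67 in SRG3 cKO and 5.63, 5.24 and 5.06 in RORγt KO arrays. Here too the groups stood apart, the highest WT array (5.03) just below the lowest RORγt KO array (5.06). Klrc2 was 1.51-fold lower in SRG3 cKO than in RORγt KO cells (-0.60, SE 0.12, adjusted p = 0.0445). Its changes against WT, -0.26 (interval -0.53 to -0.00) in SRG3 cKO and 0.33 (0.07 to 0.60) in RORγt KO cells, did not pass. With an array dropped the direct difference passed in 2 of 9 fits, those without RORγt KO array 1 or 3, with adjusted p up to 0.156 in the other 7. Klrc1, Klrc2 and Klrc3 are close copies, and how far their probes tell them apart was not tested. Klrc3 itself was at 0.32 in RORγt KO and 0.16 in SRG3 cKO against WT cells, neither past the test.

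**Figure D2:**
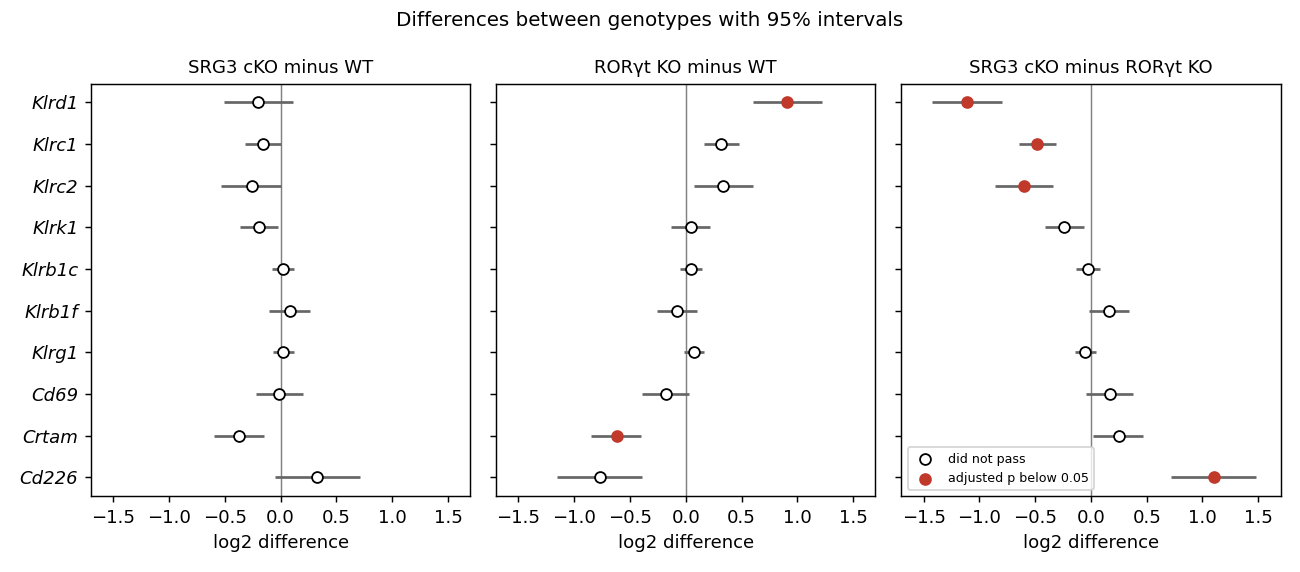
Log2 difference (horizontal axis) of each receptor gene in the 3 comparisons, with 95% confidence intervals as bars; filled points passed the test. No gene is filled in SRG3 cKO minus WT, Klrd1 and Crtam are filled in RORγt KO minus WT, and Klrd1, Klrc1, Klrc2 (left of 0) and Cd226 (right of 0) in the direct comparison.

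Klrk1, for NKG2D, was dim as well, with a mean at or above 11.1% of probe sets. Its level was 5.01, 4.94 and 5.19 in WT, 4.71, 4.94 and 4.92 in SRG3 cKO and 5.03, 5.11 and 5.14 in RORγt KO arrays. SRG3 cKO arrays lay below the RORγt KO arrays, but the difference of -0.24 (interval -0.41 to -0.06, adjusted p = 0.262) did not pass, nor did the changes against WT of -0.19 (-0.36 to -0.02) in SRG3 cKO and 0.05 (-0.13 to 0.22) in RORγt KO cells.

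The NKR-P1 genes Klrb1c, whose product is the NK1.1 antigen, and Klrb1f varied little. Klrb1c ranged over 0.16 log2 units across the 9 arrays, from 6.90 to 7.07, and 4 arrays had one identical value (6.96). A value shared by at least 4 arrays occurred in 12.8% of all probe sets. Its changes were 0.02 (-0.08 to 0.12) in SRG3 cKO and 0.05 (-0.05 to 0.15) in RORγt KO cells. Klrb1f lay between 6.54 and 6.68 in WT, 6.61 and 6.82 in SRG3 cKO and 6.38 and 6.68 in RORγt KO arrays, which overlap, with changes of 0.08 (-0.10 to 0.26) and -0.08 (-0.26 to 0.10). Klrg1, the cadherin receptor, ranged over 0.18 log2 units, with changes of 0.02 (-0.07 to 0.12) in SRG3 cKO and 0.07 (-0.02 to 0.16) in RORγt KO cells. None of these genes passed in any comparison.

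Cd69 was bright, with a mean at or above 96.2% of probe sets. Its level was 10.59, 10.52 and 10.31 in WT, 10.52, 10.45 and 10.42 in SRG3 cKO and 10.41, 10.08 and 10.38 in RORγt KO arrays. WT overlapped with both knockouts, and the changes of -0.01 (-0.22 to 0.20) in SRG3 cKO and -0.18 (-0.39 to 0.03) in RORγt KO cells did not pass. S1pr1, the exit receptor that CD69 binds, was at 0.29 (adjusted p = 0.343) and 0.12 (0.699) in the same comparisons.

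Crtam, for the CADM1 receptor of activated T cells, was lower in RORγt KO than in WT cells. Its level was 8.47, 8.82 and 8.76 in WT, 8.20, 8.46 and 8.28 in SRG3 cKO and 7.95, 8.08 and 8.17 in RORγt KO arrays. RORγt KO arrays lay below all others, and the highest SRG3 cKO array (8.46) just below the lowest WT array (8.47). Crtam fell 1.54-fold in RORγt KO cells (-0.62, SE 0.10, adjusted p = 0.0250). In SRG3 cKO cells the change was -0.37 (interval -0.60 to -0.15, adjusted p = 0.196) and did not pass. With the replicate number as a block the adjusted p was 0.0380, though the labels state no pairing. The knockouts did not differ by the test (0.25, interval 0.02 to 0.47, adjusted p = 0.395). The fall in RORγt KO cells did not pass without WT array 2 (-0.55, adjusted p = 0.119) or 3 (-0.58, 0.110) or without RORγt KO array 1 (-0.56, 0.103) or 2 (-0.63, 0.108). It also did not pass without SRG3 cKO array 3, which bears on the estimated spread alone (-0.62, 0.0538). The ligand gene Cadm1 (-0.05 in SRG3 cKO, 0.05 in RORγt KO) and Scrib, for the polarity protein that CRTAM recruits (0.00 and -0.14), did not pass.

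Cd226, the activating receptor also called DNAM-1, stood on opposite sides of WT in the knockouts. Its level was 8.04, 8.20 and 8.04 in WT, 8.42, 8.59 and 8.25 in SRG3 cKO and 6.93, 7.73 and 7.31 in RORγt KO arrays. The 3 groups did not overlap, and the RORγt KO arrays were the most spread (SD 0.40, against 0.10 in WT and 0.17 in SRG3 cKO). Cd226 was 2.14-fold higher in SRG3 cKO than in RORγt KO cells (1.10, SE 0.17, adjusted p = 0.0148). Against WT its changes of 0.33 in SRG3 cKO (interval -0.05 to 0.71, adjusted p = 0.514) and -0.77 in RORγt KO cells (-1.15 to -0.39, adjusted p = 0.0798) did not pass. The latter passed without RORγt KO array 2 (-0.98, adjusted p = 0.0312). The direct difference did not pass when SRG3 cKO array 1 (1.10, adjusted p = 0.0647) or 2 (1.01, 0.0738) was dropped, or RORγt KO array 3 (1.09, 0.0569).

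Tigit and Cd96, for receptors that share ligands with CD226, had other patterns. Tigit, the inhibitory one, was 7.97, 7.85 and 7.72 in WT, 7.82, 7.81 and 7.65 in SRG3 cKO and 8.50, 8.79 and 8.41 in RORγt KO arrays. It rose 1.65-fold in RORγt KO against WT cells (0.72, SE 0.10, adjusted p = 0.0140) and was 1.75-fold lower in SRG3 cKO than in RORγt KO cells (-0.81, adjusted p = 0.00482), where Cd226 was higher. The rise over WT did not pass without WT array 2 or 3 or RORγt KO array 1, nor in the 6 arrays compared, and the direct difference passed in all 17 alternatives. Cd96 was at 0.45 in SRG3 cKO (adjusted p = 0.0925, or 0.0144 with the replicate block) and 0.15 in RORγt KO cells. The ligand genes Pvr (0.12 in SRG3 cKO, 0.13 in RORγt KO) and Nectin2 (0.04 and 0.09) did not pass.

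**Figure D3:**
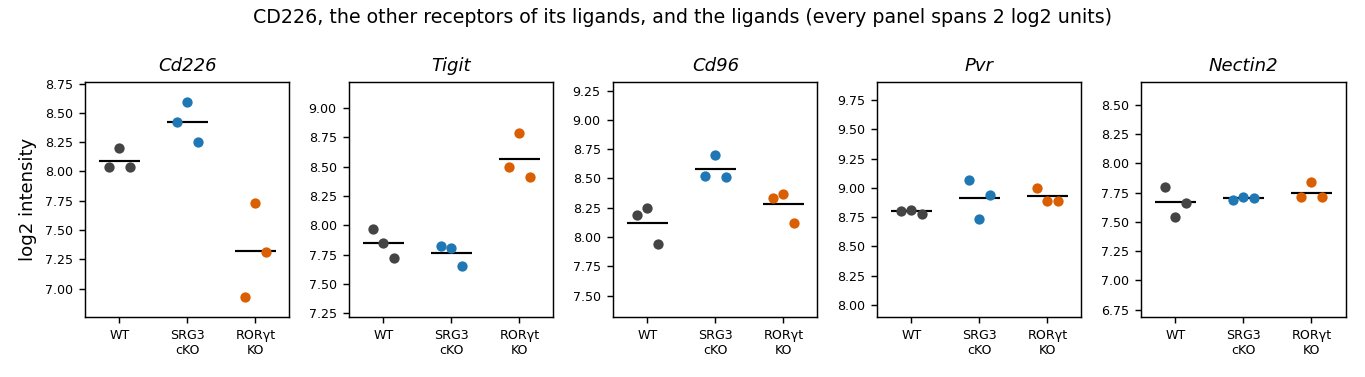
Log2 intensity (vertical axis, 2 log2 units per panel) of Cd226, of Tigit and Cd96, whose products share its ligands, and of the ligand genes Pvr and Nectin2, in 3 arrays per genotype with group means as lines. In RORγt KO arrays Cd226 is low (6.93 to 7.73) and Tigit high (8.41 to 8.79).

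Counted over the 10 genes with limma, none passed in SRG3 cKO against WT cells, where 0.523% of all genes did (0.28% higher, 0.243% lower). In RORγt KO against WT 1 rose and 1 fell, while 1.04% of all genes passed (0.694% higher, 0.343% lower). In SRG3 cKO against RORγt KO cells 1 was higher and 3 lower, while 1.28% of all genes passed (0.595% higher, 0.681% lower). An unadjusted limma p under 0.05 was found for 3, 5 and 6 of the 10 in the 3 comparisons, and for 11.2%, 12.7% and 11.1% of all genes. The median change of the 10 was -0.08, 0.05 and -0.04 in the 3 comparisons, against medians of -0.01, -0.00 and -0.00 over all genes. In fits of only the 6 arrays of each comparison none, none and 1 of the 10 passed, the last being Klrd1. The comparisons share arrays, so their counts are not independent. The 10 genes were chosen with earlier results of these data known. Their counts beside the shares of all genes are therefore a description, not a test of the group.

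Other killer lectin genes did not pass. Of 13 measured among 20 listed, covering the Ly49 genes Klra2, Klra5, Klra6, Klra9 and Klra17 and others such as Klre1, Klri1 and Klrb1b, none passed in any comparison, with changes from -0.17 to 0.32 in RORγt KO and -0.23 to 0.18 in SRG3 cKO against WT cells. In RefSeq gene order from Klrb1a to Klra2, 44 of 92 genes were measured, 7 of them receptors described here. Of the other 37, the pseudogene Klrb1-ps1 rose in RORγt KO cells (0.31, adjusted p = 0.0442), and the noncoding 2310001H17Rik rose in SRG3 cKO cells (0.29, adjusted p = 0.0481). These passed in 1 and 0 of 9 fits with an array dropped, and Klrb1-ps1 did not pass with the replicate block (adjusted p = 0.0517). Clec2i, whose product is a ligand of the Klrb1f receptor, was lower in SRG3 cKO than in RORγt KO cells (-0.37, adjusted p = 0.00800), as was the autophagy gene Gabarapl1 (-0.45, adjusted p = 0.00482), close to Klrd1. Klre1 and Klrk1, the measured genes on either side of Klrd1, did not pass.

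**Figure D4:**
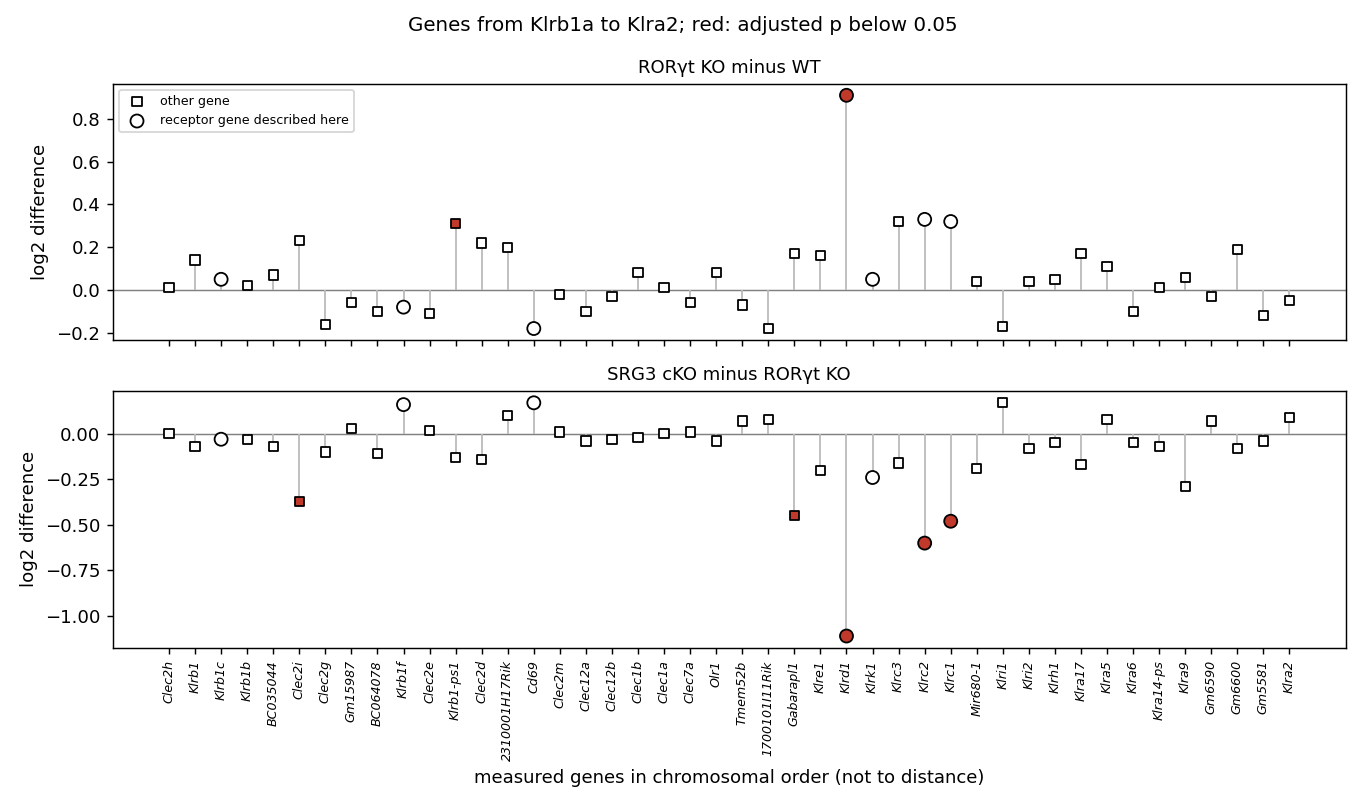
Log2 difference (vertical axis) of the 44 measured genes from Klrb1a to Klra2 in chromosomal order, for RORγt KO minus WT and SRG3 cKO minus RORγt KO; circles are the receptor genes described here, squares other genes, and red ones passed the test. Klrd1 is the farthest from 0 in both panels (0.91 and -1.11), and Klrc2 and Klrc1 follow in the lower one.

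Some genes for ligands or signalling partners of these receptors passed. Over all genes 0.523% passed in SRG3 cKO against WT, 1.04% in RORγt KO against WT and 1.28% in the direct comparison. Of 17 measured ligand genes 1 rose in SRG3 cKO against WT cells, Ulbp1, which encodes a ligand of NKG2D (0.60, SE 0.11, adjusted p = 0.0481), none passed in RORγt KO cells, and 1 (Clec2i) was lower in the direct comparison. With an array dropped Ulbp1 passed in 1 of 9 fits. H2-T23, which encodes Qa-1, was at 0.16 and 0.15 in SRG3 cKO and RORγt KO cells and did not pass. Of 18 adaptor and signalling genes, Itgal, for the LFA-1 integrin chain that associates with CD226, fell in SRG3 cKO (-0.26, adjusted p = 0.0474) and RORγt KO cells (-0.26, adjusted p = 0.0312), but with an array dropped it passed in 0 and 1 of 9 fits. In the direct comparison Sh2d1a, for the adaptor SAP, was higher in SRG3 cKO cells (0.32, adjusted p = 0.0123) and Vav1, a signalling exchange factor gene, lower (-0.20, adjusted p = 0.0440). With an array dropped Sh2d1a passed in 6 and Vav1 in 1 of 9 fits. Vav1 did not pass in the 6 arrays compared, after centring the arrays on their medians or with the replicate block (adjusted p = 0.0686). The adaptors of the activating receptors, Hcst (DAP10; 0.04 and -0.05) and Tyrobp (DAP12; 0.04 and 0.13), did not pass.

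Other receptors and effectors of killer cells moved in part. The shares of all genes given above stand beside these lists and those that follow. Of 23 receptor genes, 3 rose in RORγt KO against WT cells: Il12rb2 (1.46, adjusted p = 0.000382), Tigit and the inhibitory receptor gene Lag3 (0.41, adjusted p = 0.0343). In SRG3 cKO cells Il18r1 (0.63, adjusted p = 0.00375) and Cd48 (0.27, adjusted p = 0.0461) rose and Lilrb4a fell (-0.87, adjusted p = 0.0443). Il12rb2 and Il18r1 passed in all 9 fits with an array dropped, Lag3 in 2, and Cd48 and Lilrb4a in 0. Cd48 did not pass with the replicate block (adjusted p = 0.0559). In the direct comparison 1 was higher and 4 lower in SRG3 cKO cells. Of 16 cytotoxic effector genes, Nkg7, a gene of cytotoxic granules (0.48, adjusted p = 0.0187), and the granzyme gene Gzmb (0.77, adjusted p = 0.04999) rose in RORγt KO cells, and the chemokine gene Ccl3 fell in SRG3 cKO cells (-0.99, adjusted p = 0.0128). With an array dropped Nkg7 and Ccl3 each passed in 5 of 9 fits and Gzmb in 1, and Gzmb did not pass with the mean of probe sets or with array weights. In the direct comparison 5 were lower in SRG3 cKO cells, Gzmb, Nkg7, Ccl3, Ccl4 and Ccl5, and none higher; with an array dropped Nkg7 and Ccl3 passed in all 9 fits, Gzmb in 7, Ccl4 in 5 and Ccl5 in 0.

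Of 20 transcription factor genes of NK and killer T cells, Nfil3 rose (0.37, adjusted p = 0.0140) and Id2 fell (-0.32, adjusted p = 0.0140) in RORγt KO cells, Ikzf3 rose in SRG3 cKO cells (0.33, adjusted p = 0.0488), and none passed in the direct comparison. Nfil3 passed in 6, Id2 in 5 and Ikzf3 in 0 of 9 fits with an array dropped, and Ikzf3 did not pass with the replicate block (adjusted p = 0.0661). Runx3 was at 0.35 in RORγt KO cells (adjusted p = 0.0806, or 0.0194 with the replicate block), Tbx21 at 0.04 and Eomes at 0.04. Of 21 early activation genes, Tnfrsf9 rose and Tnf and Egr2 fell in RORγt KO cells, and Cd44 fell in SRG3 cKO cells. Tnf passed in all 9 fits with an array dropped, Tnfrsf9 in 3, Egr2 in 1 and Cd44 in 0.

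These are bulk cultures, in which more cells of a type and more RNA per cell cannot be told apart. Of 8 NK cell markers other than the receptor genes described here, 6 were measured. Klre1, a killer lectin gene beside Klrd1, and the NK receptor gene Ncr1 are among them, so the set is not free of receptor genes. None of the 6 markers passed in any comparison. Their mean level was 6.68 to 6.75 in WT, 6.63 to 6.66 in SRG3 cKO and 6.74 to 6.80 in RORγt KO arrays, in the same order of genotypes as Klrd1, and their part in its difference was not tested. Ncr1, Eomes, Gzma and Klre1 were below the median of all probe sets. Khdc1a and Prf1 were above it, with means at or above 52.3% and 72.0% of probe sets. The CD8 T cell markers Cd8a and Cd8b1 did not pass, with a mean level of 7.97 to 8.07 in WT, 7.99 to 8.03 in SRG3 cKO and 7.98 to 8.05 in RORγt KO arrays. None of the 3 measured γδ and NKT cell markers, 5 B cell markers and 7 myeloid markers passed either.

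For the 5 receptor genes that passed in a comparison, the genes closest in profile were found by the root mean square difference of centred levels over the 9 arrays. For Klrd1, whose own SD over the arrays was 0.512, they were Il7r (0.144), Serpinb5 (0.167) and Gja1 (0.178). For Klrc1 (SD 0.214) they were Morrbid (0.071), Penk (0.093) and Psmb10 (0.095), and for Klrc2 (0.283) Aff3 (0.111), Atp8b4 (0.114) and Cd80 (0.114). For Crtam (0.282) they were Grk5 (0.097), Mast4 (0.106) and Plek (0.112), and for Cd226 (0.507) Cxcl3 (0.165), Tspan6 (0.220) and Pisd-ps3 (0.244). Klrd1, Klrc1 and Klrc2 were not among each other's 3 closest genes. The levels were not scaled, so the measure also counts the size of a change. With an SD of 0.512, Klrd1 could not come close to Klrc1 (0.214) or Klrc2 (0.283). Whether the 3 genes share a pattern was not tested.

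**Figure D5:**
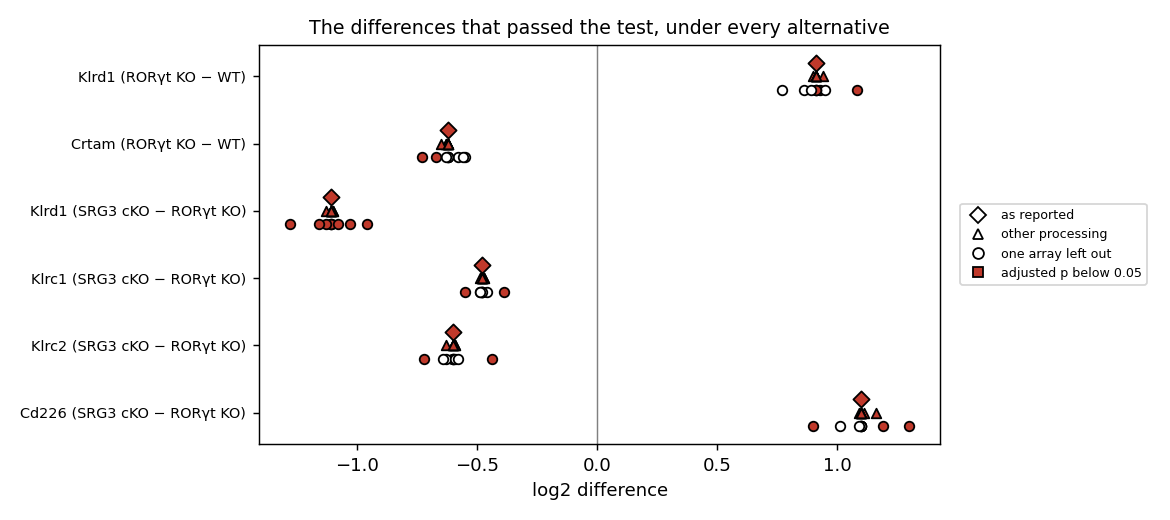
Log2 difference (horizontal axis) of each receptor gene that passed the test, as reported (diamonds), under other processing (triangles) and with 1 array left out (circles); filled symbols have an adjusted p below 0.05. Klrd1 in SRG3 cKO minus RORγt KO is the only one filled throughout, and no value crosses 0.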

How the data were processed

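The deposited values are log2 probe set intensities of 41345 probe sets, per the labels of GeneChip arrays hybridized with biotin-labelled cDNA. The authors' background correction, summarization and normalization are not stated in any source at hand. Array medians were 7.12 to 7.14, and 0 sample columns were unused. Probe sets with a single gene symbol (23521) were used, and those with several (1814) or without one (16010) were not. One with Klrb1a and Klrb1c together was left out. Symbols were updated by gene ID (23328 matched) with RefSeq names of GRCm38.p6, and the probe set with the highest mean stood for each gene. The 10 genes and all lists were chosen with earlier results of these data known.

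All 9 arrays entered one limma 3.58.1 fit (R 4.3.3). The procedure was tried on simulated data with independent noise and no pairing. That trial covered the comparisons against WT only, not the direct comparison. Pairing was checked by correlating the deviations from the group means of arrays sharing a number. For SRG3 cKO with WT the values 0.287, 0.186 and 0.116 were all positive, though the labels state no pairing. Those of RORγt KO with WT (0.215, -0.00527 and 0.186) and of the knockouts (0.223, -0.00544 and 0.137) were not all positive. Pairing is thus not settled, and the reported fit held no replicate block, which entered as an alternative only. Alternatives covered normalization, centring, dim probe sets, probe set choice, variance model, array weights, arrays in the fit, the replicate block and leaving out each array. Genes named were all 10, called or directly tied genes of the lists, genes of the Klrb1a to Klra2 region that passed, and the 3 closest in profile. The region and the motifs were chosen after the values were seen. The number of arrays limits the precision.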

Additional observations from a re-analysis of the deposited data

Results flagged for a closer look

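The knockouts differed from each other for 4 of the 10 receptor genes, by the test of SRG3 cKO against RORγt KO cells. Of all genes 1.28% passed this test. Against WT only Klrd1 of the 4 passed, in RORγt KO cells. The difference, SRG3 cKO minus RORγt KO, was -1.11 on the log2 scale for Klrd1 (limma adjusted p = 0.00505), -0.48 for Klrc1 (0.0133), -0.60 for Klrc2 (0.0445) and 1.10 for Cd226 (0.0148). With an array dropped Klrd1 passed in all 9 fits, Klrc1 in 5, Klrc2 in 2 and Cd226 in 6, and in the 6 arrays compared only Klrd1 passed. Klrd1, Klrc1 and Klrc2 were lower, and Cd226 higher, in all 3 SRG3 cKO arrays than in any RORγt KO array. Arrays of the knockouts also stood apart in Klrk1, Cd69 and Crtam, which did not pass (limma adjusted p = 0.262, 0.554 and 0.395). Standing apart was thus not particular to the genes that passed. The share of all genes whose arrays stand apart in this way was not counted. Groups of 3 arrays were not searched for outlying values.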

How the results depend on the processing

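The number of the 10 genes that passed depended on the arrays used. Against WT, 0 passed in SRG3 cKO cells in every fit with an array left out, and 1 with the replicate block (Crtam). In RORγt KO cells 2 passed, 0 in the 6 arrays compared and 0 to 2 with an array left out. In the direct comparison 4 passed, 1 in the 6 arrays and 1 to 3 with an array left out. The block made Cd226 pass in RORγt KO cells as well (-0.77, adjusted p = 0.0237), though pairing is not settled in any comparison. It ended no call among the 10 genes. Among the other named genes it ended those of Cd48, Ikzf3 and Il23r in SRG3 cKO against WT cells. It also ended those of Klrb1-ps1 in RORγt KO against WT cells and Vav1 in the direct comparison. Other named genes gained a call with the block, among them Runx3 in RORγt KO and Cd96 in SRG3 cKO against WT cells. Of 504 alternative values of the 10 genes 468 kept direction and side of the threshold. The 5 that changed sign were near 0 and never passed: Cd69 in SRG3 cKO against WT (0.05 without WT array 1, 0.01 without WT array 2 or SRG3 cKO array 3, range -0.09 to 0.05), Klrk1 in RORγt KO against WT (-0.01 without WT array 2, range -0.01 to 0.12) and Klrb1c in the direct comparison (0.01 without RORγt KO array 2, range -0.05 to 0.01). Calls over all genes ranged from 13 to 195 (116 reported) in SRG3 cKO against WT, 43 to 374 (230) in RORγt KO against WT and 138 to 368 (283) in the direct comparison. Klrc2 and Klrk1 were below the filter on dim probe sets. The cause of these changes was not tested.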
